A study of Mus musculus with 6 samples.

Results

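Neuronatin (Nnat) and Blcap are a nested pair of genes on mouse chromosome 2, with the whole of Nnat lying inside an intron of Blcap on the opposite strand. The pair makes up 2 of the 48526 genes in the count tables. Nnat was chosen by its level in Setd2 knockout (KO) against control (WT) cultures, as an earlier look at these data had shown it, and Blcap was chosen by position, as the host of Nnat. For that reason the values of both genes in this contrast are given as descriptions, with no test. RNA was sequenced from primary renal tubular epithelial cells grown from digested kidney cortex of mice aged 4 to 5 weeks, in medium with 20 ng/ml EGF and 100 nM hydrocortisone. The 3 KO libraries came from Setd2(F/F)Ksp-Cre+ mice, where the Ksp-cadherin (Cdh16) promoter directs Cre to the epithelium of kidney tubules. The 3 WT libraries came from Setd2(F/F) littermates, which carry the same floxed alleles without Cre. All KO libraries carried Cre and no WT library did, so effects of Cre and of the Setd2 deletion cannot be told apart. Setd2 is the methyltransferase that adds the third methyl group to lysine 36 of histone H3 along transcribed genes.

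Nnat is an imprinted gene, expressed from the copy inherited from the father, and in the mouse it is best known from developing brain, pituitary and pancreatic beta cells. Its product is a small proteolipid of the endoplasmic reticulum membrane that resembles phospholamban, the inhibitor of the calcium pump SERCA, and in mouse beta cells it was found to help the signal peptidase complex process preproinsulin. Blcap encodes a small, highly conserved membrane protein that was first described as lost in invasive human bladder cancer, and its transcript is a known target of adenosine-to-inosine editing. The pair forms a small imprinted domain of its own, in which the promoter region of Nnat is methylated on the maternal copy while Blcap is transcribed from both copies in most mouse tissues.

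In GRCm38, Nnat (ENSMUSG00000067786) spans chr2:157560078-157562522 on the plus strand and Blcap (ENSMUSG00000067787) spans chr2:157556362-157571274 on the minus strand. The gap between annotated Blcap exons that holds Nnat is 5583 bases long. The nearest Blcap exon ends 71 bases before the Nnat start and belongs to a non-coding Blcap transcript, and on the far side the next exon lies 3069 bases beyond the Nnat end. No exon of the pair overlaps, so exonic reads of each can be told apart by position. Whether the counting used strand is not given in the sources used here, and without it unspliced Blcap RNA that crosses Nnat exons would be counted as Nnat. A miRNA gene model, Gm23134, lies antisense within the Nnat body and had 0 counts in all 6 libraries. GENCODE M21 gives 10 transcripts of Nnat and 6 of Blcap. Among the coding models, the 3-exon Nnat-202 encodes 81 residues, the 2-exon Nnat-205 encodes 54, and Blcap-202 encodes 87.

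The promoter windows of both genes, from RefSeq on GRCm38.p6, are shown because they are the separate start regions of a pair whose levels differed between KO and WT in unlike measure. Each holds 250 bases before and 50 after the annotated start, 5′ to 3′ on the gene's own strand, with every CG dinucleotide, the site of DNA methylation, in capitals. The windows are chr2:157559828-157560127 on the plus strand for Nnat and chr2:157566312-157566611 on the minus strand for Blcap. The RefSeq start used for Blcap lies inside its GENCODE span, whose outermost start is at 157571274.
Nnat promoter: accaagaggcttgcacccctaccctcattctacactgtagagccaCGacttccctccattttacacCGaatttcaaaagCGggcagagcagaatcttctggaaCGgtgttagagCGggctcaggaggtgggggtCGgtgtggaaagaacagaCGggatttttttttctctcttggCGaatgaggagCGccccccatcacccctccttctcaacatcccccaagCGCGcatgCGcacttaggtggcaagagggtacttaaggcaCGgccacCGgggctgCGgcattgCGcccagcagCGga
Blcap promoter: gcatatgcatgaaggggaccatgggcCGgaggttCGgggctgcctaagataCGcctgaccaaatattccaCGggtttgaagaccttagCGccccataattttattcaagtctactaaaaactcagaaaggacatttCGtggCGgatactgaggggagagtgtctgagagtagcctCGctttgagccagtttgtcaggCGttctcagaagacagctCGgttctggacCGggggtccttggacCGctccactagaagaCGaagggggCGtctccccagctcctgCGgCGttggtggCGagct
The windows held 17 CG each, more than 68.6% of the 32851 promoters in the table, and their GC content was 57.3% for Nnat and 55.3% for Blcap. The letters TGCCGC, the core that the imprint-protecting factor ZFP57 is known to bind when methylated, occurred in the Nnat window at base 278, read on the other strand. They did not occur in the Blcap window, and 11.6% of all promoters held them on either strand. The E-box CANNTG, the class of element bound by NeuroD1, a known activator of Nnat in mouse beta cells, was absent from the Nnat window and occurred at base 2 of the Blcap window, against 72.3% of all promoters. A match to letters is not evidence of binding.

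The middle exon of Nnat is shown because gene-level counts add up Nnat-202, which has it, and Nnat-205, which lacks it, along with the other models. It has 81 bases (chr2:157561213-157561293, plus strand) and is all coding sequence.
Nnat exon 2: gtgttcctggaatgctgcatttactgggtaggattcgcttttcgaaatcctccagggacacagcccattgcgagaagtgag
How the Nnat reads divided between these forms cannot be read from the counts.

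Nnat was far more abundant in KO than in WT cultures. Its level in CPM (read counts scaled to a common library size, with TMM factors) was 59.8, 49.9 and 55.0 in KO replicates 1 to 3, against 3.94, 4.07 and 4.37 in WT replicates 1 to 3. The groups were far apart: the lowest KO value was 11.4 times the highest WT value. The means were 54.9 ± 4.96 CPM in KO and 4.12 ± 0.222 CPM in WT (SD, n = 3 each). This gave a log2 fold change of 3.73 ± 0.10 (SE), or 13.3-fold. The values rest on 5275, 4751 and 5402 reads in KO and 340, 432 and 422 reads in WT. How many of them came from unspliced Blcap RNA was not tested. Counting alone gives an error of 4.81% to 5.42% on each WT value, about as much as the 5.39% spread between the WT libraries. In KO the spread of 9.03% exceeded the counting error, which was at most 1.45%.

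Blcap differed little. Its level was 94.1, 87.0 and 103 CPM in KO replicates 1 to 3, against 81.2, 88.1 and 81.6 CPM in WT replicates 1 to 3. The groups overlapped, with KO replicate 2 below WT replicate 2. The means were 94.8 ± 8.12 CPM in KO and 83.6 ± 3.83 CPM in WT (SD, n = 3 each), and the log2 fold change was 0.18 ± 0.08 (SE), or 1.13-fold. The host's reads, 26722 over the KO libraries and 24248 over the WT libraries, were plentiful enough that counting error was at most 1.19% per library.

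**Figure D1:**
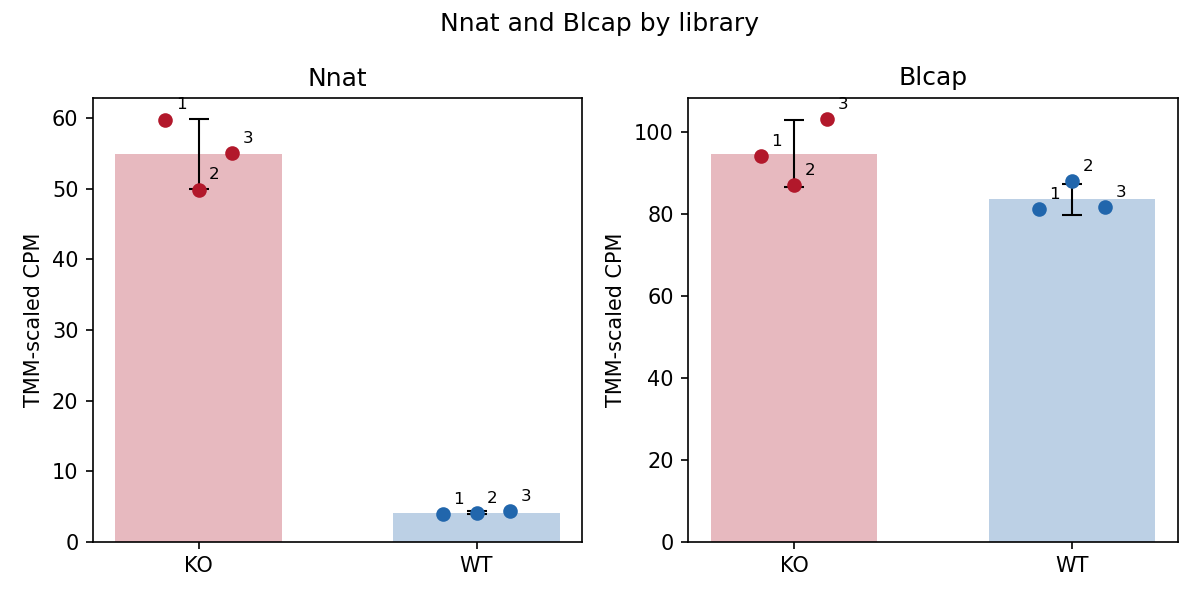
TMM-scaled level of Nnat and Blcap in each library, in CPM, with KO left of WT. Numbered points are replicates, bars are means and error bars are SD; the KO points of Nnat sit between 49.9 and 59.8 CPM and the WT points near 4 CPM, while those of Blcap overlap.

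Because Nnat is much shorter than Blcap, their levels were compared per length of exon. Nnat stood at 117, 101 and 111 TPM (reads per length of exon, scaled to the same sum in every library) in KO replicates 1 to 3, against 8.27, 8.26 and 8.88 TPM in WT replicates 1 to 3. Blcap stood at 111, 106 and 125 TPM in KO, against 103, 107 and 99.7 TPM in WT. The nested gene was therefore about level with its host in KO and far below it in WT. The ratio of Nnat to Blcap TPM was 0.966 ± 0.086 in KO and 0.0822 ± 0.00625 in WT (SD, n = 3 each). By TPM, Nnat ranked 1486 to 1820 from the top of all genes in the KO libraries and 9263 to 9423 in the WT libraries, and Blcap ranked 1374 to 1716 in KO and 1715 to 1877 in WT.

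Only 11 of 17571 tested genes had a higher log2 fold change than Nnat, and 4 of the 11506 with a mean of at least 2 CPM, namely Xist, Prl3d1, Prl2c3 and Prl2c2. Between libraries of a group those 4 varied more than Nnat. In KO their SD was 325 CPM on a mean of 371 CPM for Xist, 8.86 on 10.7 CPM for Prl3d1, 103 on 141 CPM for Prl2c3 and 20.7 on 26.8 CPM for Prl2c2. Blcap lay inside the bulk of genes, with 29.7% of the tested genes above it. Over all tested genes, 21% were called at an edgeR adjusted p below 0.05, with 12% higher and 9.08% lower in KO, and the groups did not overlap in 41.9%.

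**Figure D2:**
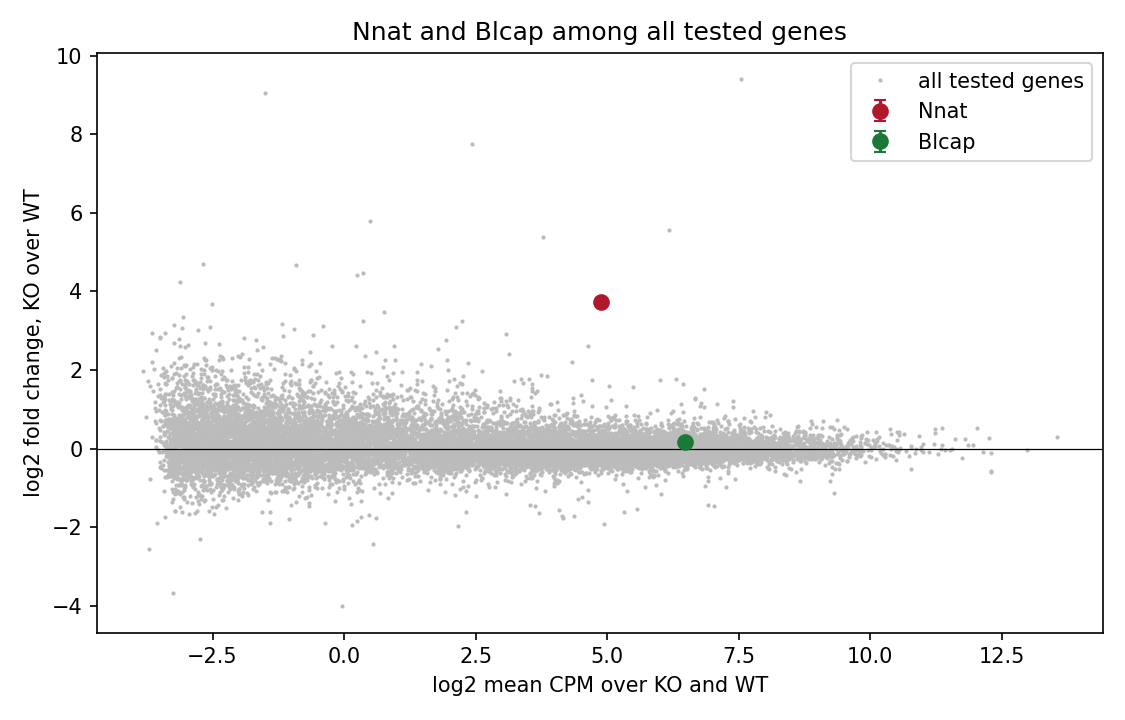
Log2 fold change (KO over WT) of each of the 17571 tested genes against its log2 mean CPM. Nnat, in red, lies at 3.73 above nearly all genes of its abundance, and Blcap, in green, lies at 0.18 within the cloud; error bars on both are SE.

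The genes with the KO and WT profile most like that of Nnat, by the root mean square difference of log2 CPM from the WT mean over the 6 libraries, were Slc4a10 (difference 0.43), Slc5a5 (0.46), Sprr2f (0.60), Ifi205 (0.75) and Fam163a (0.86). They are a bicarbonate transporter, the sodium-iodide symporter, a cornified envelope protein, an interferon-activated gene and a membrane protein gene. None had a fold change as large as that of Nnat, and the nearest, Slc4a10, was 9.45-fold higher in KO, at 8.54 ± 2.59 CPM in KO and 0.899 ± 0.139 CPM in WT (SD, n = 3 each). The profiles most like Blcap were those of Foxj2, Safb2, Ssu72, Bex3 and Ccdc57, at differences of 0.008 to 0.034. All of these had log2 fold changes between 0.16 and 0.19, and a likeness at so small a change describes many genes.

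No tested gene within 500 kb of the pair was called higher in KO. Within 500 kb of either end of Blcap the tables held 23 other genes, of which 16 were tested, 1 was lower in KO and 15 fell short of the threshold, against 21% called over all tested genes. With 12% higher over all tested genes, 0 higher of 16 is little information. Within 1 Mb, 4 of 41 tested genes (9.76%) were higher. None of the 16 was higher in edgeR, at an adjusted or an unadjusted p below 0.05, nor in DESeq2 or limma-voom, and at an unadjusted p 3 were lower. Their median log2 fold change was -0.14 (range -0.61 to 0.40), beside -0.01 over all tested genes. The nearest tested genes on the lower-coordinate side were the antisense RNA gene Gm14286, at 0.614 ± 0.027 CPM in KO and 0.796 ± 0.184 CPM in WT, and the pseudogene Gm14287, at 0.190 ± 0.079 CPM in KO and 0.145 ± 0.056 CPM in WT (SD, n = 3 each). On the other side they were the lincRNA gene Platr27, at 0.306 ± 0.044 CPM in KO and 0.428 ± 0.069 CPM in WT, and Ctnnbl1, a spliceosome-associated protein gene 166.1 kb away. Ctnnbl1 was at 35.3 CPM in KO and 36.0 CPM in WT, with a log2 fold change of -0.03 ± 0.09 (SE).

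The neighbour past the threshold was Samhd1, a deoxynucleotide triphosphohydrolase gene that restricts retroviruses, 421.1 kb away. It was at 60.7, 66.0 and 58.9 CPM in KO replicates 1 to 3, against 83.2, 78.5 and 81.9 CPM in WT replicates 1 to 3. No KO value reached the lowest WT value. Samhd1 fell by 0.39 on the log2 scale (SE 0.07; adjusted p = 0.00413 in edgeR's quasi-likelihood test). The Samhd1 call ended once libraries high in Xist, described further on, had a term of their own (edgeR adjusted p = 0.0638). Src, the tyrosine kinase gene and nearest protein-coding gene on that side at 84.5 kb, was at 218 ± 6.63 CPM in KO and 201 ± 22.7 CPM in WT (SD, n = 3 each) and did not pass the test (edgeR adjusted p = 0.343). Ghrh and Vstm2l were near 0, and neither reached the filter on low counts.

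**Figure D3:**
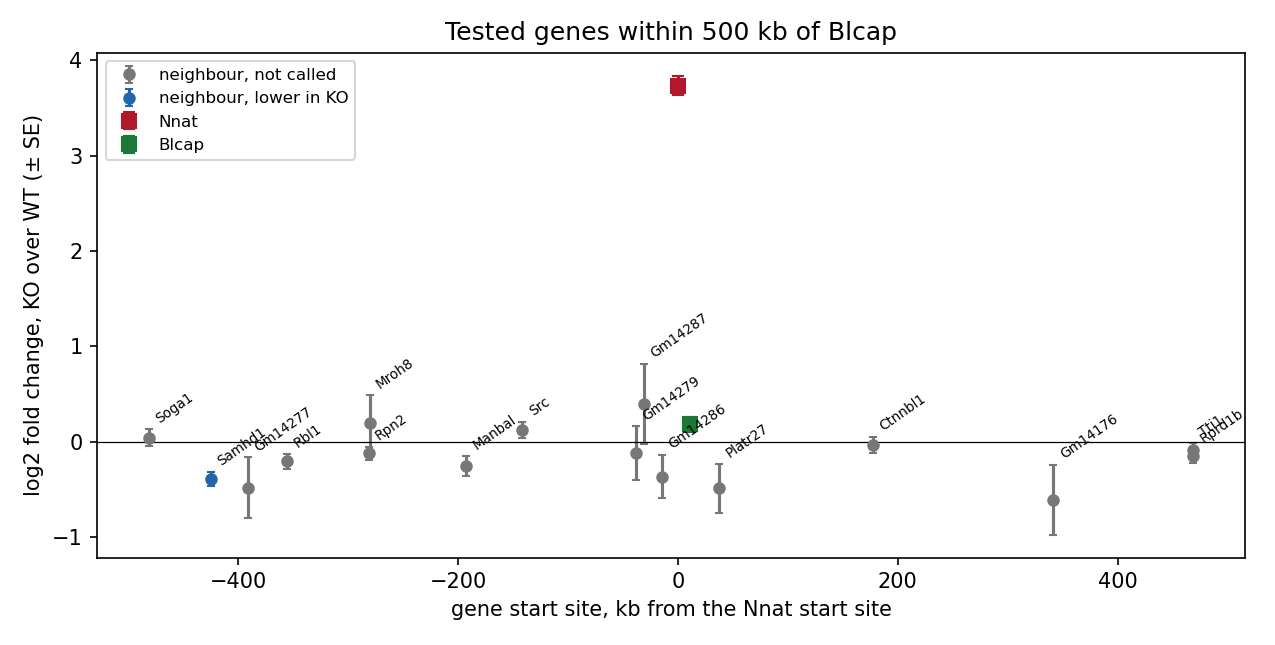
Log2 fold change (KO over WT, with SE) of the tested genes within 500 kb of Blcap, placed by the distance of their outermost GENCODE start from that of Nnat in kb. Nnat stands alone at 3.73; Blcap and the neighbours lie between -0.61 and 0.40, and Samhd1, in blue, is the neighbour past the threshold.

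The pair was set beside other genes of the same layout. GENCODE M21 holds 642 pairs in which a protein-coding gene lies within a gap between the exons of a protein-coding host, and both genes were tested in 159 of them, 112 on opposite strands. The pairs follow gene models alone. Some hosts recur, Fgfr2 most often, so the pairs are not all separate loci. Among the other 158 pairs none had a larger difference between nested gene and host. The nested gene's log2 fold change exceeded the host's by 3.55 for Nnat and Blcap, where the median of the others was -0.11 and the central 90% ran from -1.04 to 0.78. The next were Ptx3 in Veph1 (1.86) and Depp1 in Rassf4 (1.70), whose nested genes averaged only 0.185 and 0.439 CPM. Since Nnat was chosen for its fold change, its place at the top of this order is a description.

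Nested genes as a class were near the background. Without Nnat, 286 nested genes were tested, of which 36 (12.6%) were higher in KO, 25 (8.74%) were lower and 225 did not pass the test, beside 12% higher and 9.08% lower over all tested genes. Their median log2 fold change was -0.04. Of 206 tested hosts other than Blcap, 25 (12.1%) were higher, 17 (8.25%) were lower and 164 did not pass the test, with a median of 0.02.

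**Figure D4:**
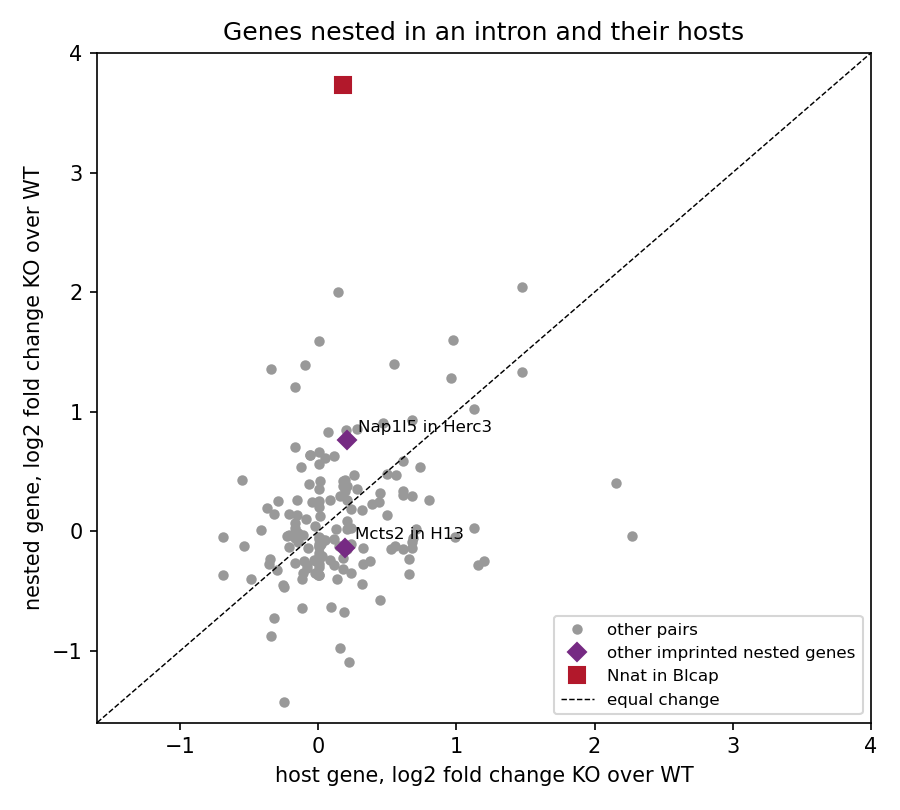
Log2 fold change (KO over WT) of nested genes against that of their hosts in the 159 pairs tested. Nnat in Blcap, the red square, is 3.55 above its host; the dashed line marks equal change, and the purple diamonds are the imprinted genes Mcts2 and Nap1l5.

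Nnat belongs to a small group of mouse genes that are imprinted and nested in a host intron, which includes Peg13, Nap1l5, Mcts2 and Zrsr1. None of the 4 others passed the edgeR test, although 1 (Peg13) was at an unadjusted p below 0.05 and was called by DESeq2 and none by limma-voom. With 21% called over all tested genes, 0 of 4 is little information. The 4 genes, in the order given, had log2 fold changes of 0.25, 0.76, -0.14 and 0.16 and edgeR adjusted p-values of 0.0632, 0.16, 0.332 and 0.414. Nap1l5, a nucleosome assembly protein gene, was at 0.272 ± 0.060 CPM in KO and 0.160 ± 0.067 CPM in WT (SD, n = 3 each). Mcts2, a translation factor retrogene, was at 6.85 ± 0.154 CPM in KO and 7.53 ± 0.168 CPM in WT. Zrsr1, a U2 small nuclear RNA auxiliary factor gene, was at 5.07 ± 0.657 CPM in KO and 4.55 ± 0.408 CPM in WT. The non-coding RNA Peg13 was at 13.5 ± 0.397 CPM in KO and 11.3 ± 0.441 CPM in WT, and it was called in 3 of the alternative settings, with edgeR adjusted p = 0.0378 when genes under a mean of 1 CPM were left out.

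The hosts of these genes differed little and not all in the direction of Blcap. None passed the edgeR test, with 3 at an unadjusted p below 0.05 and 0 called by DESeq2 or limma-voom. Herc3, H13, Commd1 and Trappc9 had log2 fold changes of 0.21, 0.19, -0.29 and 0.02, with edgeR adjusted p-values of 0.0797, 0.0853, 0.0896 and 0.935. H13, which encodes signal peptide peptidase, was at 138 ± 6.74 CPM in KO and 121 ± 7.19 CPM in WT (SD, n = 3 each). Its call was gained without WT replicate 3 (edgeR adjusted p = 0.0417), and that of Herc3 without WT replicate 1 (edgeR adjusted p = 0.0487).

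Other imprinted genes were called at shares on either side of that over all tested genes, mostly as higher in KO. Of 22 other paternally expressed genes tested, 3 passed the test as higher in KO and 1, Slc38a4, as lower, which left 18, and of 22 maternally expressed genes 6 were higher, none was lower, also at an unadjusted p below 0.05 and in DESeq2 and limma-voom, and 16 did not pass. These are 18.2% of the paternally and 27.3% of the maternally expressed genes, beside 21% over all tested genes. Higher calls alone made up 13.6% and 27.3%, beside 12% over all tested genes. Lower calls made up 4.55% and 0%, beside 9.08%. DESeq2 called 5 of the paternally expressed genes higher and 0 lower. The median log2 fold changes were 0.12 and 0.19. Plagl1, a paternally expressed zinc finger gene, was at 27.4 ± 2.54 CPM in KO and 14.1 ± 0.991 CPM in WT (SD, n = 3 each), with no overlap, and rose with a log2 fold change of 0.96 ± 0.10 (SE; edgeR adjusted p = 0.000121). The other paternally expressed genes that rose, Zdbf2 and Sfmbt2, had log2 fold changes of 1.19 and 0.80, and both calls ended with the Xist term (edgeR adjusted p = 0.0624 and 0.0932). Among maternally expressed genes, Cdkn1c, a cyclin-dependent kinase inhibitor gene, Tnfrsf23, a decoy receptor gene, and Ampd3, an AMP deaminase gene, rose with log2 fold changes of 1.04, 1.15 and 0.50 (edgeR adjusted p = 5.3e-05, 6e-05 and 0.0085). The difference between these genes and Nnat was not tested.

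Among factors known to maintain imprints, Zfp57, Smchd1 and Zfp445 fell in KO. Of 12 tested, 3 were lower and 9 did not pass the edgeR test, with none higher there, in DESeq2 or in limma-voom and 1 higher at an unadjusted p below 0.05, with a median log2 fold change of -0.13. The share lower was 25%, beside 9.08% over all tested genes. Zfp57, which protects methylation at imprinted control regions, was at 11.2 ± 0.764 CPM in KO and 15.3 ± 1.15 CPM in WT (SD, n = 3 each). The groups did not overlap, and it fell by 0.45 on the log2 scale (SE 0.10), with an edgeR adjusted p of 0.00943. Its call ended without KO replicate 1 (edgeR adjusted p = 0.0624) and with the Xist term (0.0623). Smchd1, a chromatin protein that silences imprinted clusters, and Zfp445, a partner of Zfp57 in this role, fell by 0.29 and 0.31 on the log2 scale (edgeR adjusted p = 0.0298 and 0.0406). Both calls ended with the Xist term (edgeR adjusted p = 0.195 and 0.207). They also ended when KO replicate 1 (edgeR adjusted p = 0.131 and 0.155), KO replicate 2 (0.0544 and 0.091) or KO replicate 3 (0.114 and 0.106) was left out, that of Smchd1 without WT replicate 2 (0.0676) and that of Zfp445 without WT replicate 1 (0.0795). The maintenance methyltransferase gene Dnmt1 was at 273 ± 6.96 CPM in KO and 266 ± 10.9 CPM in WT (SD, n = 3 each) and did not pass the test (edgeR adjusted p = 0.744). DNA methylation was not measured here.

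Among genes of the calcium store that neuronatin is known to act on, Atp2a3, Itpr3, Orai1, Calr and Itpr2 rose in KO. Of 23 tested genes of endoplasmic reticulum calcium handling, 5 (21.7%) were higher in KO and 18 did not pass the edgeR test, with none lower there, in DESeq2 or in limma-voom and 3 lower at an unadjusted p below 0.05, beside 12% higher over all genes, and the median log2 fold change was 0.02. Atp2a2, the main SERCA pump of non-muscle cells, was at 401, 401 and 374 CPM in KO, against 458, 426 and 411 CPM in WT. Its groups did not overlap, but its log2 fold change of -0.14 ± 0.07 (SE) did not pass the test (edgeR adjusted p = 0.206). Atp2a3, a SERCA pump of blood and epithelial cells, rose at a low level, with 1.46, 1.53 and 1.24 CPM in KO and 0.463, 0.527 and 0.476 CPM in WT. Its log2 fold change was 1.52 ± 0.19 (SE; edgeR adjusted p = 0.000461).

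The calcium release channel gene Itpr3 was at 436 ± 13.4 CPM in KO and 328 ± 35.4 CPM in WT (SD, n = 3 each), and it rose with a log2 fold change of 0.41 ± 0.09 (SE; edgeR adjusted p = 0.00818). Orai1, the pore of store-operated calcium entry, rose with a log2 fold change of 0.61 ± 0.16 (SE; edgeR adjusted p = 0.0196). The Orai1 call ended without KO replicate 1 (edgeR adjusted p = 0.0697) and without KO replicate 3 (0.0742), and with the Xist term those of Itpr3 and Orai1 ended (0.112 and 0.114). The list then had 1 call, and it had 2 without KO replicate 1, 3 without KO replicate 3 and 3 without WT replicate 2. The small membrane regulators of SERCA in the list were near 0: phospholamban (Pln), sarcolipin (Sln) and myoregulin (Mrln) averaged 0.003, 0.014 and 0.022 CPM in KO and 0.014, 0.007 and 0.015 CPM in WT, and none reached the filter. Of these 4 genes, Nnat alone passed the filter.

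In the signal peptidase complex, a known partner of neuronatin, 3 of 5 genes (60%) were lower in KO, beside 9.08% over all tested genes. Spcs1, Spcs2 and Spcs3 fell by 0.41, 0.24 and 0.28 on the log2 scale (edgeR adjusted p = 0.00914, 0.0283 and 0.0438), while Sec11a and Sec11c, at log2 fold changes of -0.19 and 0.03, did not pass the test. Spcs1 was at 61.0, 64.3 and 57.8 CPM in KO, against 78.4, 73.4 and 90.7 CPM in WT, with no overlap. All 3 calls ended with the Xist term (edgeR adjusted p = 0.117, 0.12 and 0.292), without KO replicate 1 (0.0548, 0.174 and 0.133) and without KO replicate 3 (0.0519, 0.104 and 0.139). The calls of Spcs2 and Spcs3 also ended without KO replicate 2 (0.0531 and 0.0823) and without WT replicate 2 (0.0619 and 0.0701), and that of Spcs3 without WT replicate 1 (0.0844). The editing enzyme gene Adar, whose product acts on Blcap RNA, was at 57.6 ± 0.708 CPM in KO and 58.4 ± 4.38 CPM in WT (edgeR adjusted p = 0.886). None of the 3 tested RNA adenosine deaminase genes passed the edgeR test, also at an unadjusted p, or was called by DESeq2 or limma-voom, and editing itself cannot be read from counts.

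The summed level of 18 markers of tubule epithelium ran from 7941 to 7988 CPM in KO and from 6866 to 8039 CPM in WT. The sum was mostly Krt8, Krt18 and Cdh1, at 2593, 2019 and 1202 CPM in KO and 2587, 1975 and 1022 CPM in WT. It therefore says little about low markers such as Umod (0.963 CPM in KO and 0.805 CPM in WT), Calb1 (0.935 and 0.834 CPM) and Aqp2 (0.089 and 0.119 CPM). Of the 17 tested, 5 (29.4%) were higher in KO, namely Lrp2, Pax2, Aqp1, Cdh16 and Slc12a3, and none was lower in edgeR, DESeq2 or limma-voom, with 1 lower at an unadjusted p below 0.05, beside 12% higher over all tested genes. The groups overlapped for Aqp1, at 14.5, 18.5 and 29.2 CPM in KO replicates 1 to 3 and 15.25, 8.34 and 10.9 CPM in WT replicates 1 to 3. How these 5 calls fared in the alternative settings, including the Xist term, was not tested. Slc34a1, a transporter of differentiated proximal tubule, was near 0 in both groups. Nnat is known to be abundant in neurons and neuroendocrine cells, whose 25 markers summed to 25.4 to 30.6 CPM in KO and 19.9 to 27.7 CPM in WT, mostly Uchl1. The groups overlapped in that sum, and Uchl1 itself was at 20.8 to 26.5 CPM in KO and 17.3 to 24.5 CPM in WT. The sum therefore says little about the other markers. Below the filter were 17 of the 25 markers. Of these, Snap25, Nkx2-2 and Neurog3 had 0 counts in every library, and Neurod1 averaged 0.007 CPM in KO and 0.004 CPM in WT. Stmn2 (0.191 CPM in KO and 0.046 CPM in WT), Chga (0.130 and 0.064 CPM) and Pcsk1 (0.014 and 0 CPM) were higher in every KO library, at low counts. For the other markers below the filter the groups overlapped. Of the 8 tested, 3 were higher in KO and 5 did not pass edgeR's test, with none lower at an unadjusted p below 0.05 or in DESeq2 or limma-voom, and the share higher was 37.5%, beside 12% over all tested genes. These 3 were Scg5 (1.19 CPM in KO and 0.612 CPM in WT), Chgb (0.250 and 0.067 CPM) and Nefm (0.214 and 0.067 CPM), with edgeR adjusted p-values of 0.00562, 0.00975 and 0.0143. All 3 calls ended with the Xist term (edgeR adjusted p = 0.066, 0.122 and 0.0645), those of Chgb and Nefm without KO replicate 3 (0.0508 and 0.0582), and that of Nefm without WT replicate 2 (0.0612) or KO replicate 1 (0.0624).

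Markers of several other cell types were also higher in the KO libraries. Summed levels did not overlap for podocytes (160.6 to 196 CPM in KO and 104 to 106 CPM in WT), endothelium (22.9 to 35.7 CPM in KO and 16.0 to 16.6 CPM in WT), leukocytes (43.9 to 52.5 CPM in KO and 29.8 to 35.3 CPM in WT), adipocytes (9.74 to 10.4 CPM in KO and 5.91 to 7.57 CPM in WT) or glia (199 to 213 CPM in KO and 177 to 194 CPM in WT). They overlapped for fibroblasts and pericytes (67.9 to 124 CPM in KO and 63.5 to 86.7 CPM in WT). Higher calls numbered 4 of 8 tested podocyte markers, 5 of 10 endothelial, 4 of 9 leukocyte, 1 of 4 adipocyte, 2 of 5 glial and 5 of 8 fibroblast and pericyte markers, with none lower in edgeR, also at an unadjusted p, DESeq2 or limma-voom. In percent these are 50, 50, 44.4, 25, 40 and 62.5, beside 12% higher over all tested genes. The adipocyte sum was mostly Lipe, with Adipoq and Plin1 near 0 and Cfd at 0, and the glial sum was mostly Mbp and Erbb3, which epithelia also express, with Foxd3 at 0. The part of other cells in the Nnat level was not tested, and in bulk RNA more cells of a type and more RNA per cell cannot be told apart.

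Setd2 itself was at 163, 154 and 158 CPM in KO replicates 1 to 3, against 185, 168 and 152 CPM in WT replicates 1 to 3. Gene-level counts do not show the deleted exons, so they do not check the deletion. Counted reads per library ran from 86078636 to 106974842. Xist, the RNA of the inactive X chromosome, was above 10 CPM in KO replicates 2 and 3 and below 1 CPM in KO replicate 1 and all WT libraries, so sex and genotype partly coincided. Nnat was high in all 3 KO libraries. Without the Xist-positive libraries its log2 fold change was 3.86 ± 0.14 (SE), where the single KO library left is assumed to vary as the WT libraries do, and that of Blcap was 0.17 ± 0.13. Leaving out each library in turn gave 3.69 to 3.80 for Nnat and 0.11 to 0.24 for Blcap.

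**Figure D5:**
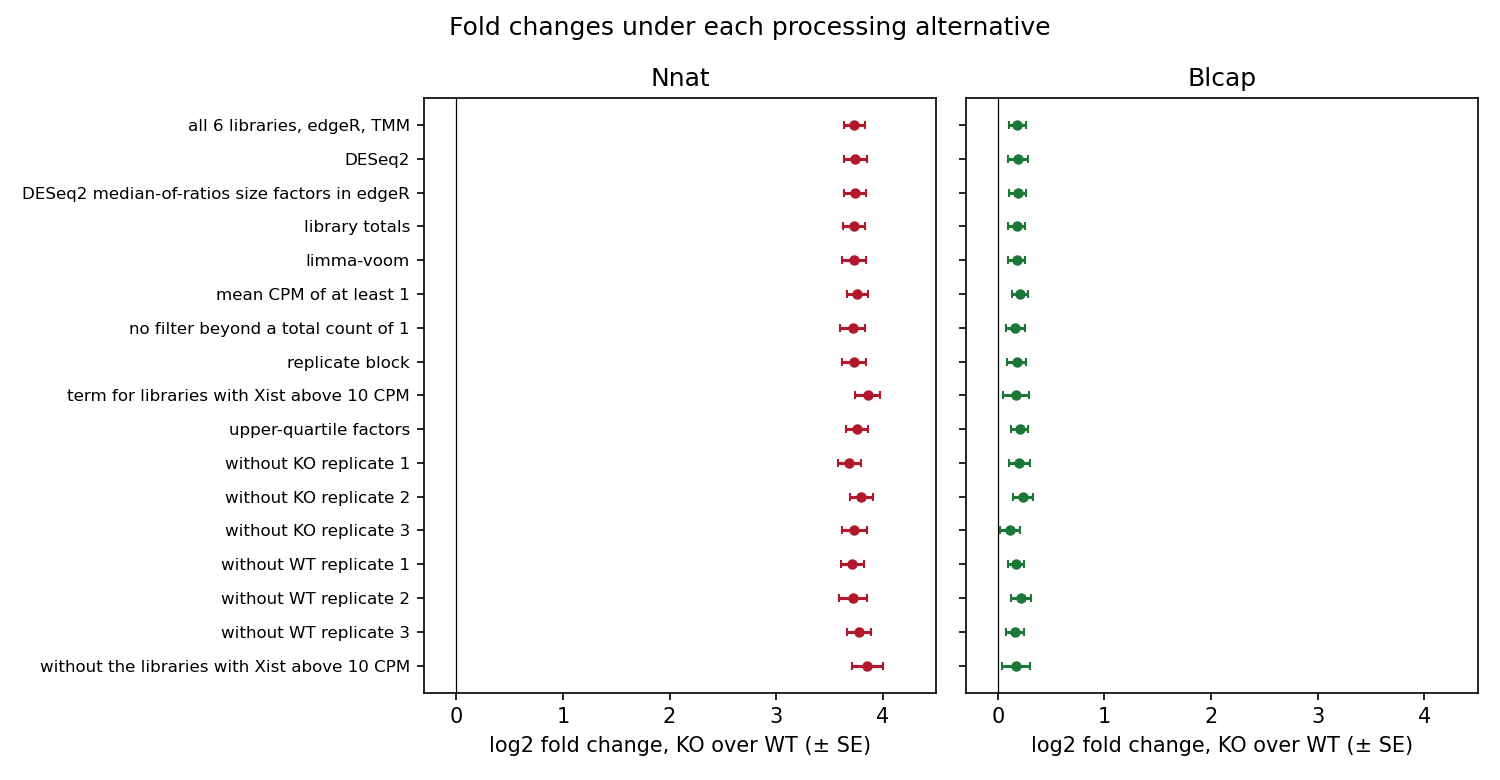
Log2 fold change (KO over WT, with SE) of Nnat and Blcap under the reported setting, in the top row, and each processing alternative in the rows under it. Nnat stays between 3.69 and 3.86 and Blcap between 0.11 and 0.24.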

How the data were processed

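The authors deposited 1 table of raw read counts per Ensembl gene for each of the 6 libraries, with no normalization. Trimmomatic 0.38, STAR 2.7.1a, HTSeq 0.11.2 and mm10 appear, per the submitters' processing notes, with neither role nor settings. Which annotation release was counted, whether strand was used and what became of multiply mapped reads is not given in the sources used here. Per the labels' protocols, RNeasy columns and a TruSeq RNA library kit were used. Groups and replicate numbers came from the sample titles. The labels do not say that replicates were separate animals, so p-values measure the spread between these libraries, which may be partly technical.

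Symbols, coordinates and exon lengths came from GENCODE M21 (GRCm38), which matched 48144 of 48526 genes. The test was that of edgeR 4.0.16 (R 4.3.3) after filterByExpr at its defaults (17571 genes) and TMM scaling, with genotype as the term, a quasi-likelihood test and Benjamini-Hochberg adjustment over all tested genes at 0.05. The SE of a log2 fold change is its size over the square root of the F statistic. CPM uses the TMM-scaled library sizes, and TPM uses merged exon length. Replicate pairs differed by more than sampling noise (chi-square per degree of freedom 22.7 to 77.1). Alternatives were DESeq2 factors, library totals, upper-quartile factors, 2 other filters, DESeq2 1.42.0, limma-voom 3.58.1, the replicate number as a block, a term for or removal of Xist-positive libraries, and leaving out each library. The 16 gene lists, the members and the naming rule were chosen with earlier results of these data known. Lists are described by counts and medians. Named genes were the 2 nearest tested and the called neighbours, up to 3 called members of each list by adjusted p (or the most abundant), and the 5 most similar profiles at a mean of at least 2 CPM. Dnmt1, Src, Calr, Itpr2, Atp2a2, the tubule markers and the near-0 SERCA regulators and neighbours were named after their values were seen, as were genes above Nnat in fold change. So were Stmn2, Chga and Pcsk1, and from the neuronal list the called, leading and near-0 markers were also named. From the adipocyte and glial lists only leading or near-0 markers were named. No marker was named from the podocyte, endothelial, leukocyte, or fibroblast and pericyte lists. No protein sequence was used here.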

Additional observations from a re-analysis of the deposited data

How the results depend on the processing

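Nnat and Blcap kept their direction under all 16 alternatives, with log2 fold changes of 3.69 to 3.86 for Nnat and 0.11 to 0.24 for Blcap. Per length, the log2 ratio of Nnat to Blcap was -0.05 in KO and -3.61 in WT, and it was -0.25 in KO and -3.80 in WT with the longest transcript as the length and 0.08 in KO without the Xist-positive libraries, while leaving out a library gave -0.12 to 0.01 in KO and -3.67 to -3.56 in WT. With a term for Xist-positive libraries, 878 genes were higher and 285 lower in KO, and without those libraries 728 and 179, against 2102 and 1596. Leaving out 1 library gave 1228 to 2142 higher (1228 without KO replicate 1, 1321 without KO replicate 3) and 455 to 1624 lower (455 without KO replicate 1, 612 without KO replicate 3, 1044 without KO replicate 2, 1003 without WT replicate 2). Fewer samples or residual degrees of freedom enter these fits. Called nested genes, 36 higher and 25 lower, numbered 16 and 2 with the Xist term, 12 and 1 without those libraries, and 22 higher on the opposite strand alone, with 23 to 34 higher (23 without KO replicate 1) and 7 to 31 lower (7, 15 and 10 without KO replicates 1, 2 and 3, 13 without WT replicate 2) when a library was left out; 17 were lower on the opposite strand and 17 with genes under a mean of 1 CPM left out. Within 500 kb of Blcap, 0 genes were higher in the edgeR fit and 1 lower. A 1 Mb window, with more genes in it, held 4 higher and 3 lower, 2 were lower with no filter on low counts, 0 with the Xist term, 0 without Xist-positive libraries, and 1 to 2 when a library was left out (2 without WT replicate 1 or 3). The calcium list had 5 higher and 0 lower calls, and 1 higher with the Xist term, 1 without those libraries, 2 lower with no filter, and 2 to 5 higher and 0 to 1 lower when a library was left out (1 without WT replicate 1 or 3). The causes were not tested. Of the 22 called genes that were followed under the alternatives, 5 kept the call under every alternative and 0 reversed. The tubule markers, Calr, Itpr2 and Slc38a4 were not among them.

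The labels state no pairing by replicate number. Deviations from the group mean correlated at -0.15 to 0.04 for same-numbered and -0.11 to 0.10 for different-numbered libraries. With 3 libraries per group, these values cannot show or exclude pairing. With the replicate number as a block, the log2 fold changes were 3.73 for Nnat and 0.18 for Blcap. Calls then numbered 2139 higher and 1455 lower, and the block ended 0 of the calls that were followed. The spread of Nnat between WT libraries, 5.39%, was about as large as counting error alone, at 4.81% to 5.42%. The part of unspliced Blcap RNA in those reads was not tested.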
